A study of Homo sapiens and Mus musculus with 30 samples.

Results

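LIN28B, HMGA2 and the IGF2BP family (IGF2BP1, IGF2BP2 and IGF2BP3) were followed as 5 genes, taken by their symbols from the deposited tables. All 5 were listed among the 11342 genes of the HEK293A table, among the 57820 genes of the let-7a table and, in mouse spelling, among the 41128 genes of the NIH3T3 table. LIN28B is an RNA-binding protein of embryonic and cancer cells that binds precursors of the let-7 microRNAs and keeps them from maturing. Let-7 in turn silences messenger RNAs that carry matching sites, among them those of LIN28B itself, of HMGA2, a chromatin-bending protein, and of the IGF2BPs, oncofetal proteins that bind messenger RNAs and affect their stability, transport and translation. These genes are therefore often read together as a circuit of the embryonic growth program.

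The cells were HEK293A, derived from human embryonic kidney, and NIH3T3, derived from mouse embryo fibroblasts, both at 5 levels of LIN28B named X0 to X4. In HEK293A X0 is a LIN28B knockout, per the series design, and X1 to X4 carry rising LIN28B from inducible transgenes. The NIH3T3 titles name no knockout, and the labels give neither the species of the transgene, its promoter nor the number of clones. One treatment text, with doxycycline at 10 ng/ml to induce the transgenes, stands on every sample of both lines, X0 included; as it also names let-7a on samples that received none, it does not settle whether X0 was given doxycycline. Total RNA and polysome RNA, that is RNA carried by ribosomes, came from 1 library each per level. The design text speaks of 2 replicates, and the sources used here do not say whether the columns pool them. For HEK293A X0 there was also 1 library of each fraction from cells that had received mature let-7a at 10 nM, with no mock transfection named. Small RNA of HEK293A, from the knockout and from X3, with or without let-7, came from 8 libraries, either total or bound by AGO2, the protein that carries microRNAs.

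Values are RPKM, reads per kilobase of gene scaled to the reads of the library. Recovered reads numbered 37.7 to 56.0 M (M, 1e6 reads) in the HEK293A total RNA libraries and 9.09 to 14.6 M in the polysome libraries, against 16.1 to 25 M and 15.9 to 20.8 M in NIH3T3. The let-7a libraries held 35.1 M reads (total RNA) and 7.39 M (polysome). Of 7 markers fixed for HEK293A, 5 (VIM, CDH2, KRT8, KRT18 and NEFL) stood at 14.4 to 171 RPKM in the 5 untransfected total RNA libraries and at 10.6 to 176 RPKM in the let-7a one. There the keratins KRT8 and KRT18 were low, at 18.1 RPKM against 45.4 to 54.9 and at 23.2 against 48.4 to 57.2. PAX2 and NEFM were listed only in the let-7a table, at 0.045 and 0.051 RPKM. All 8 fibroblast markers were present in NIH3T3, from 12.3 RPKM upward, and 4 epithelial markers reached at most 0.733 RPKM.

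The mature let-7 sequences are shown because they are what LIN28B restrains and what was transfected. The capitals mark the seed, bases 2 to 8, with which the microRNA pairs to its targets (RefSeq, GRCh38.p14).
hsa-let-7a-5p: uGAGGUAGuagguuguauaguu
hsa-let-7b-5p: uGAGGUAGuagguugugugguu
hsa-let-7c-5p: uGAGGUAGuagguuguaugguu
hsa-let-7d-5p: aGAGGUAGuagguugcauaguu
hsa-let-7e-5p: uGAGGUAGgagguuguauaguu
hsa-let-7f-5p: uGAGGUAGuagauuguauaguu
hsa-let-7g-5p: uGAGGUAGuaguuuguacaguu
hsa-let-7i-5p: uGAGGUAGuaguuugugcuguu
All 8 share 1 seed and differ from let-7a by 1 to 4 bases outside it. Of 2370 mature names listed by RefSeq, 11 carry this seed.

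LIN28 proteins are known to bind a GGAG motif in let-7 precursors. Searched on the strand of the hairpin, GGAG (capitals) occurs in 9 of the 11 let-7 hairpins, against 43.4% of all 1562 hairpins in the table, whose lengths vary. The hairpin of let-7a-1 (MIRLET7A1, chr9:94175957-94176036, plus strand) holds it and that of let-7a-3 (MIRLET7A3, chr22:46112749-46112822, plus strand) does not, although both yield the same mature let-7a.
MIRLET7A1: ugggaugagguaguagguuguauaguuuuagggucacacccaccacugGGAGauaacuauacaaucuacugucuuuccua
MIRLET7A3: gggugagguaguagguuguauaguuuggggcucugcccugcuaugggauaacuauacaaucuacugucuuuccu

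LIN28B RNA checks the labelled levels. In HEK293A total RNA the 5 libraries from X0 to X4 held 3.60, 23.0, 33.4, 81.2 and 208 RPKM of it. Every library was above the one before it, and X4 exceeded X0 57.8-fold (95% counting interval 53.9 to 62.1). The knockout library still held 799 LIN28B reads; the edited stretch of the gene is not given, so these reads do not test the knockout. Polysome LIN28B was 1.85, 12.4, 12.9, 22.3 and 39.8 RPKM in the same order, and here X1 and X2 did not differ beyond counting error (ratio 1.04, 0.937 to 1.15). In polysomes the rise from X0 to X4 was 21.5-fold (18.0 to 25.9), less than in total RNA.

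HMGA2 changed in 1 step. Its total RNA was 5.87 RPKM at X0, then 16.7, 18.5, 19.7 and 18.8 RPKM from X1 to X4. X0 lies apart from 4 libraries close to each other: X1 exceeded X0 2.85-fold (2.74 to 2.97), while X4 exceeded X1 only 1.12-fold (1.09 to 1.15). On the log2 scale with 0.5 RPKM added, used for all differences and slopes here, 89.8% of its rise from X0 to X4 was reached at X1. In polysomes HMGA2 was 3.21, 13.5, 10.3, 11.2 and 13.5 RPKM, again with X0 alone at the bottom and X4 level with X1 (ratio 1.0, 0.944 to 1.06).

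IGF2BP1 also rose most at the first step and then crept upward. From X0 to X4 its total RNA was 27.4, 44.1, 48.9, 54.6 and 56.4 RPKM, a 2.06-fold increase over the whole range (2.01 to 2.10). The first step made up 65.9% of that log2 rise. IGF2BP2 moved little, at 27.3, 30.9, 31.2, 33.6 and 35.7 RPKM, and IGF2BP3 stayed between 10.9 and 12.5 RPKM in all 5 total RNA libraries.

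The first step of these genes can be set against all genes. The rise of LIN28B is what defines the levels, so it is left out of the count. Of the 4 other genes, 2 (HMGA2 and IGF2BP1) gained more than 1.5-fold in total RNA from X0 to X1, where 0.279% of 11125 tested genes did (31 genes). By the size of this step HMGA2 ranked number 4 of all genes and IGF2BP1 number 20. The X0 side of every such difference is the same library.

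**Figure D1:**
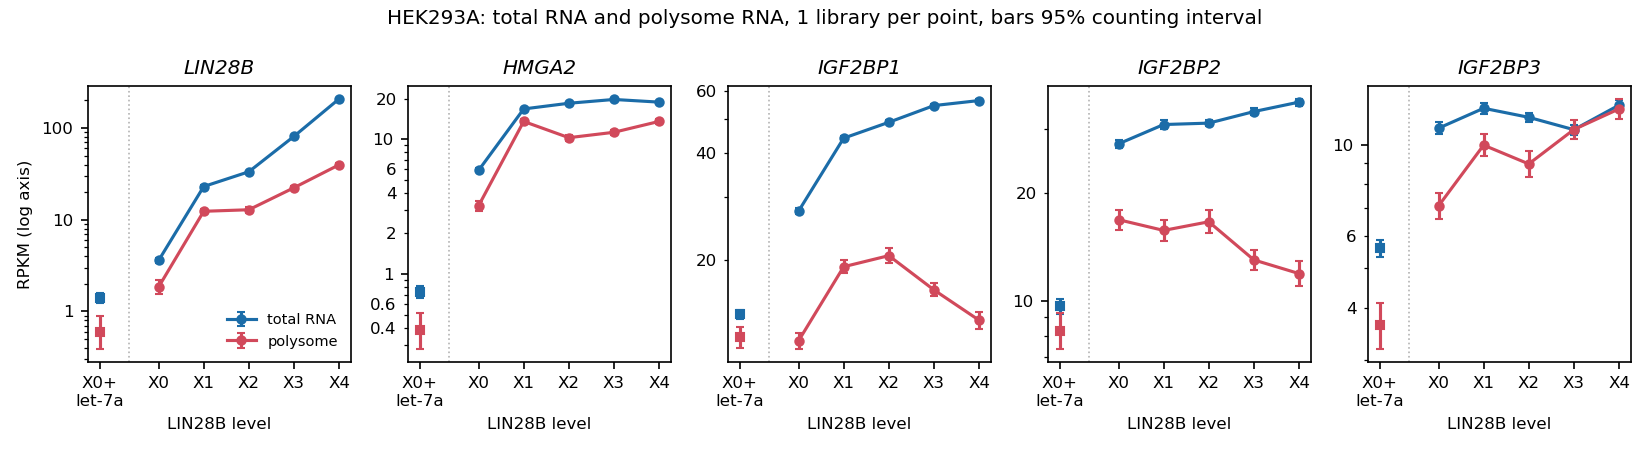
RPKM (log axis, a separate range for each gene) of the 5 genes in HEK293A total RNA (blue) and polysome RNA (red) by LIN28B level, with the X0 libraries transfected with let-7a at the left (squares). Points are single libraries and bars 95% counting intervals. LIN28B climbs from 3.60 to 208 RPKM in total RNA, HMGA2 steps from 5.87 to 16.7 RPKM and then levels off, and IGF2BP3 stays between 10.9 and 12.5 RPKM.

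A straight line over the level rank, fitted to all genes with limma, tested the whole range. The p-values measure only the scatter of 5 single libraries about the line, which may be technical. LIN28B, whose rise defines the levels, gained 1.31 ± 0.09 log2 units per level (SE; limma adjusted p = 0.000875). Of the 4 other genes, 1 passed upward in total RNA and 0 downward, against 1.48% and 0.764% of 11125 genes. This was IGF2BP1, which gained 0.24 ± 0.04 (limma adjusted p = 0.0316). HMGA2 ranked number 6 of all genes by slope, 0.34 ± 0.10, but did not pass (limma adjusted p = 0.105). With X0 set against X1 to X4 instead, HMGA2 differed by 1.57. The single X0 library is then fitted exactly and shows no scatter, so no p-value is given for that difference. In the line over the levels HMGA2 passed without X1 (limma adjusted p = 0.00337) or without X2 (0.0209). The call of IGF2BP1 was lost without X0 (limma adjusted p = 0.201) and without X3 (0.0784), and LIN28B stayed called without any 1 level. IGF2BP2 (slope 0.09, limma adjusted p = 0.0610) and IGF2BP3 (0.02, 0.757) did not pass.

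Among 39 measured let-7 targets fixed as a list without these 5 genes, 7 rose in total RNA along the levels and 0 fell. Over all 11125 genes 1.48% rose and 0.764% fell. The median slope was 0.06 for the list against 0.00 for all genes. This list and the others were chosen with earlier results of these data known. CDKN1A, a cell cycle inhibitor, had the smallest p (0.40 ± 0.05 per level, limma adjusted p = 0.00787). TMEM2, a cell surface protein, gained 0.20 ± 0.03 (0.00972), and ARID3A, a DNA-binding protein, 0.23 ± 0.03 (0.0111). Of 18 genes that make let-7 or carry out silencing, 0 passed in either direction. Of 10 known IGF2BP client messenger RNAs, CTNNB1, the catenin of WNT signalling, rose (0.13 ± 0.02, limma adjusted p = 0.0212) and CD44, an adhesion receptor, fell (−0.23 ± 0.04, 0.0316). Of 12 other proteins with KH domains, the RNA-binding fold of the IGF2BPs, 0 passed.

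Ribosome occupancy, the log2 of polysome over total RNA, separated the IGF2BP paralogs in HEK293A. IGF2BP1 occupancy was −1.18, −1.19, −1.23, −1.70 and −2.02 from X0 to X4. Its first 3 libraries were level and X3 and X4 lay below them, as polysome RNA went from 20.5 RPKM at X2 to 13.5 at X4 while total RNA went from 48.9 to 56.4 RPKM. IGF2BP2 had −0.68, −0.95, −0.89, −1.34 and −1.54, with X3 and X4 again lowest. IGF2BP3 went the other way, with −0.59, −0.28, −0.36, 0.00 and −0.03 from X0 to X4, and polysome RNA of 7.09, 9.97, 8.97, 10.9 and 12.2 RPKM. Both fractions are scaled to their own library, so occupancy is relative to other genes and not a share of RNA on ribosomes. At X4 IGF2BP3 lay above the median occupancy of all genes (−0.61) and IGF2BP1 below it. The 25th percentile of all genes was −0.72, −0.79, −0.88, −1.10 and −1.27 from X0 to X4. The 75th was 0.29 at X0 and 0.34 at X4. The low end of all genes thus moved down along the levels, and IGF2BP1 was below that 25th percentile at X0. How much of the falls of IGF2BP1 and IGF2BP2 follows this shift was not tested.

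LIN28B occupancy fell furthest. Its values from X0 to X4 were −0.80, −0.87, −1.34, −1.84 and −2.37, so X0 and X1 were close and each later library was lower. HMGA2 had no such order, at −0.78, −0.30, −0.82, −0.78 and −0.46, with X1 and X4 above the other 3 libraries.

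Of the 5 genes, 3 fell in occupancy (LIN28B among them) and 1 rose, where 38.9% of all 11125 genes fell and 19.2% rose. Calls in the one direction or the other were thus common over all genes. The total RNA of LIN28B, whose rise defines the levels, is the denominator of its own occupancy. Its X0 value comes from RNA remaining in the knockout, the later ones from cells with transgenes. Its slope may therefore compare unlike transcripts and is not independent of the levels. The slope of LIN28B was −0.41 ± 0.05 per level (SE; limma adjusted p = 0.00214), number 24 from the lowest of all genes. IGF2BP1 had −0.22 ± 0.05 (limma adjusted p = 0.00707) and IGF2BP2 −0.21 ± 0.05 (0.00630), both below the median of all genes (−0.07). IGF2BP3 had 0.14 ± 0.05 (limma adjusted p = 0.0368) and HMGA2 0.02 ± 0.07 (0.848). After each library was centred on its trimmed mean, called genes split into 3190 higher and 2960 lower, compared with 2131 and 4329 before, and the 4 calls stood. The calls rest on the ends of the range: without X4 0 genes of all 11125 passed (4481 at an unadjusted p under 0.05), and without X0 only LIN28B and IGF2BP1 of the 5 genes did. IGF2BP3 was also lost without X3 (limma adjusted p = 0.105).

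**Figure D2:**
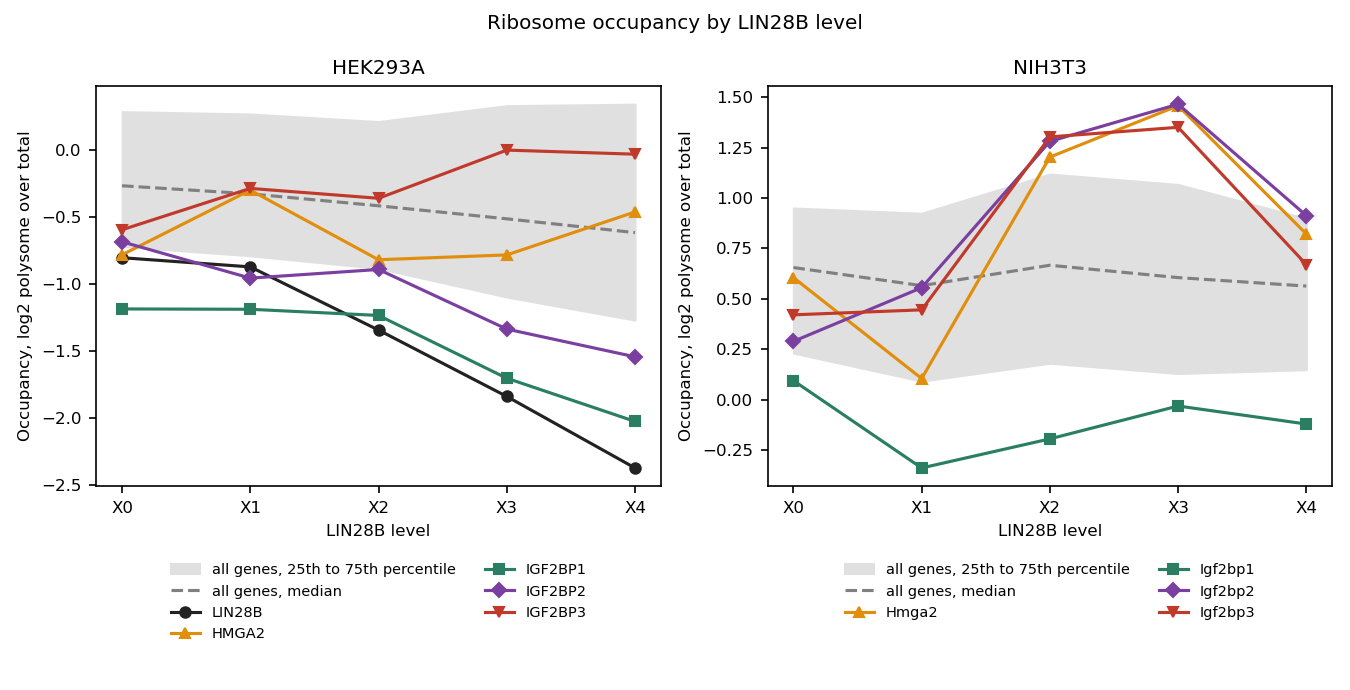
Ribosome occupancy (log2 of polysome over total RPKM, with 0.5 added to both) by LIN28B level in HEK293A (left) and NIH3T3 (right), 1 library of each fraction per point. The grey band spans the 25th to 75th percentile of all genes tested and the dashed line is their median. In HEK293A LIN28B and IGF2BP1 lie below the band at every level and IGF2BP2 from X1 on, while IGF2BP3 moves from −0.59 to −0.03 within it. In NIH3T3 Hmga2, Igf2bp2 and Igf2bp3 stand above the band at X2 and X3.

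The other lists showed occupancy falls at shares that can be read beside the same 38.9%. Of 39 let-7 targets 8 rose and 15 fell, with HMGA1, the paralog of HMGA2, at −0.34 ± 0.06 (limma adjusted p = 0.00223), the growth regulator MYC at −0.27 and the transcription factor PLAGL2 at −0.28. Of 18 let-7 biogenesis and silencing genes 2 rose and 6 fell, among them KHSRP, a factor for let-7 processing, at −0.40, HNRNPA1 at 0.22 and AGO2 at −0.21. Of 10 IGF2BP clients 5 fell and 0 rose, including ACTB, the cytoskeletal actin (−0.35), and PPP1R9B, a phosphatase scaffold (−0.32). Of 12 other KH-domain proteins 6 fell, such as FXR2 (−0.34) and HDLBP (−0.40), and 1 rose.

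Because the 3 paralogs differ in occupancy, the makeup of the family shifted between the fractions. In total RNA IGF2BP1 made up 41.8% of the summed IGF2BP RPKM at X0 and 54.0% at X4, while IGF2BP3 made up 16.7% and 11.9%. In polysomes IGF2BP3 instead went from 19.9% at X0 to 32.5% at X4, and IGF2BP1 from 33.0% to a highest value of 44.5% at X2 and back to 35.9%. The 3 paralogs were close to equal in polysomes at X4 (31.7% for IGF2BP2). The summed family RNA rose from 65.7 to 104.5 RPKM in total RNA from X0 to X4, and in polysomes it was 35.7 RPKM at X0, 46.1 at X2 and 37.6 at X4.

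**Figure D3:**
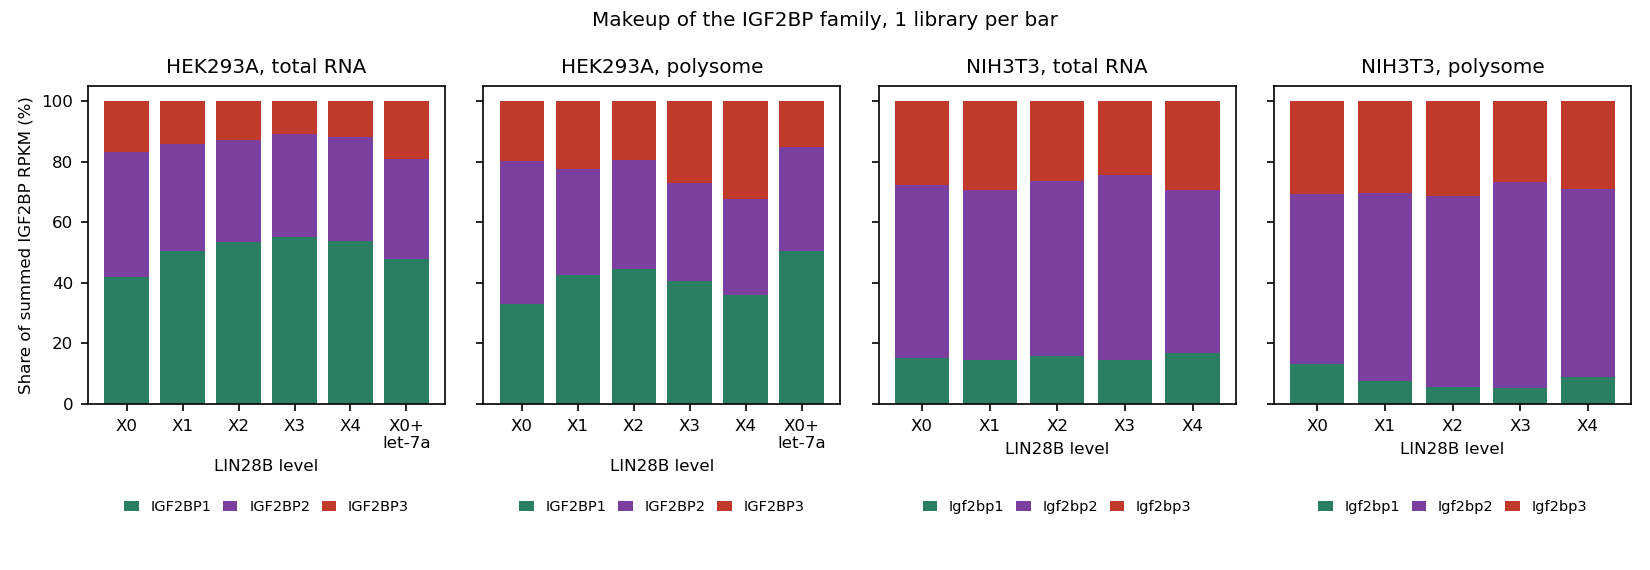
Share of each paralog in the summed RPKM of the IGF2BP family, in percent, for each library of HEK293A and NIH3T3. In HEK293A the IGF2BP3 share falls from 16.7% to 11.9% in total RNA between X0 and X4 and rises from 19.9% to 32.5% in polysomes. Igf2bp2 is the main paralog in every NIH3T3 library.

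Mature let-7a given to X0 cells was followed by lower total RNA of all 5 genes. With 1 transfected library per fraction, in a table normalised apart from the untransfected one, these are differences without a test, and intervals cover counting error only. HMGA2 total RNA was 0.737 RPKM with let-7a and 5.87 RPKM without, 7.96-fold lower (7.17 to 8.86). On the log2 scale this difference, −2.36, was the lowest of all 11125 genes. IGF2BP2 stood at 9.66 RPKM with let-7a against 27.3 without (2.83-fold lower, 2.67 to 2.99). LIN28B, the remaining RNA of the knockout, stood at 1.41 against 3.60 RPKM (2.56-fold lower, 2.23 to 2.94). IGF2BP1 was at 14.0 against 27.4 RPKM and IGF2BP3 at 5.59 against 11 RPKM, both 1.96-fold lower. All 5 genes passed 1.5-fold downward, where 8.54% of genes did, and 0 passed upward, where 9.28% did.

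In polysomes 4 of the 5 genes were lower with let-7a and IGF2BP1 was not. HMGA2 was at 0.384 RPKM with let-7a against 3.21 without, 8.36-fold lower (6.13 to 11.7), from 43 reads. LIN28B was at 0.600 against 1.85 RPKM, from only 25 reads, IGF2BP2 at 8.26 against 16.8 RPKM and IGF2BP3 at 3.63 against 7.09 RPKM. IGF2BP1 was at 12.1 RPKM with let-7a and 11.8 without (ratio 1.02, 0.939 to 1.12). Past 1.5-fold, 15.6% of all genes were lower in this fraction and 25.9% higher, with a median difference of 0.13.

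Among the 5 genes occupancy therefore differed with let-7a mainly for IGF2BP1. It was 0.98 higher with let-7a, from −1.18 to −0.21, and was the 1 gene of the 5 past 1.5-fold, where 17.9% of genes were higher and 6.63% lower. IGF2BP2 differed by 0.47, HMGA2 by 0.29, IGF2BP3 by 0.03 and LIN28B by 0.01, with a median of 0.15 over all genes. The 25th percentile of all genes was −0.72 without let-7a and −0.39 with it, the 75th 0.29 and 0.33. The low end of all genes thus lay higher with let-7a, and IGF2BP1 was below that 25th percentile at X0. How much of its difference follows this shift was not tested. HMGA2 and LIN28B rest on few polysome reads, and their approximate counting intervals span 0 (half-widths 0.47 and 0.65). Their values also depend on the added 0.5 RPKM. Without it, polysome over total RPKM of HMGA2 was 0.547 at X0 and 0.520 with let-7a. That of LIN28B was 0.514 and 0.426. The direction of these 2 occupancy differences is therefore not settled.

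**Figure D4:**
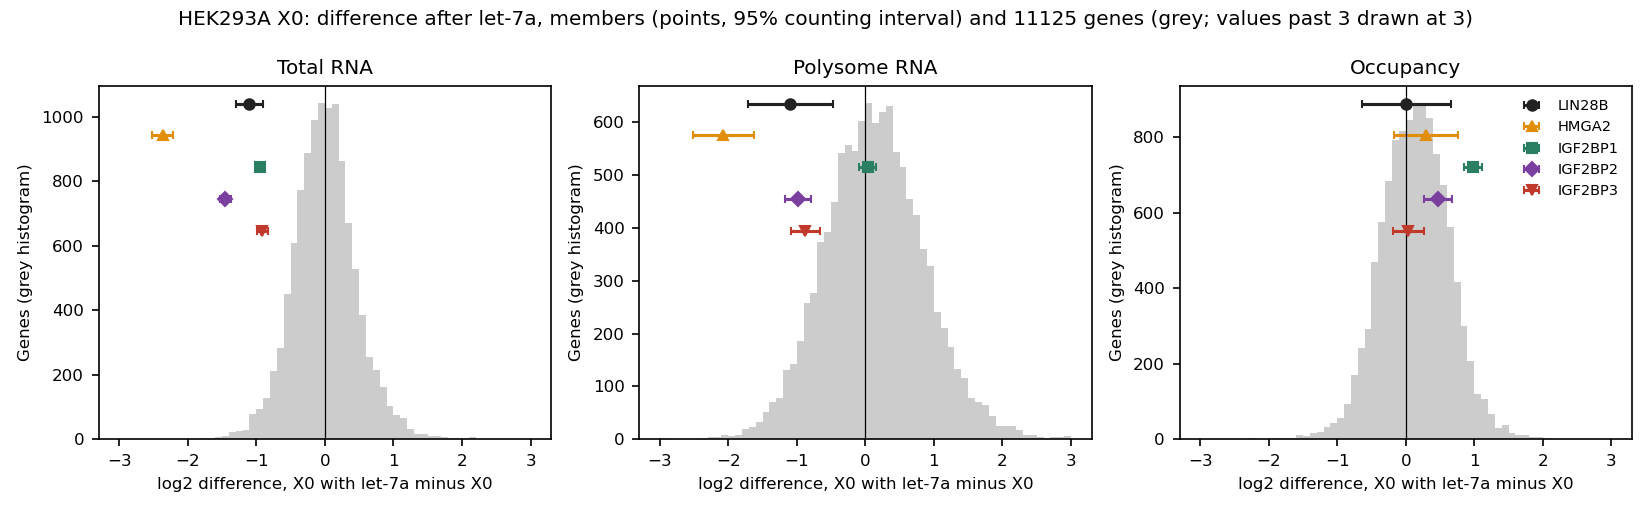
Difference between X0 cells with and without let-7a (log2 of RPKM plus 0.5) in total RNA, polysome RNA and occupancy. Coloured points are the 5 genes, set at arbitrary heights, and the grey histogram holds all 11125 genes. Bars are approximate 95% counting intervals from recovered reads, drawn around values with 0.5 RPKM added. They therefore differ from the exact intervals given for fold differences. All 5 points lie left of 0 in total RNA, HMGA2 lowest at −2.36, while in polysomes IGF2BP1 lies at 0.03.

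The 39 other let-7 targets were lower by more than 1.5-fold in 13 cases in total RNA and higher in 0. Over all genes 8.54% were lower and 9.28% higher by that much. The median difference was −0.42 for the list against −0.01 for all genes. CDKN1A, which had the smallest p among these targets along the levels, stood on the other side, at 10.5 RPKM with let-7a against 6.88 without in total RNA and 14.3 against 8.64 in polysomes. HMGA1 was at 74.8 RPKM with let-7a against 174 without. This paralog thus differed with let-7a as HMGA2 did in direction, yet along the LIN28B levels its total RNA ranged from 165 to 218 RPKM with X4 lowest. The let-7a difference and the level trend share the X0 libraries, so they are given side by side only. HMGA2 had a step of 1.44 from X0 to X1 and a difference of −2.36 with let-7a, IGF2BP1 0.68 and −0.94. IGF2BP2 had 0.18 and −1.45, and IGF2BP3 0.15 and −0.91. LIN28A, the paralog of LIN28B, is not among the genes of the HEK293A table.

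The genes nearest in profile over the 10 untransfected HEK293A libraries (Euclidean distance of log2 values centred in each fraction, 7127 genes) were read by rule. HMGA2 lay nearest to CGA, the shared subunit of glycoprotein hormones, then E2F5 and NR6A1, both of which are on the let-7 target list. E2F5 total RNA was 4.29 RPKM at X0 and 7.25 to 7.91 from X1 to X4, the same single step. IGF2BP1 lay nearest to ARID3A, also a listed let-7 target, at 5.13 RPKM at X0 and 10.3 at X4, then to GAMT and STMN3. IGF2BP2 was nearest to AIF1L. IGF2BP3 was nearest to SSR3, a subunit of the complex beside the protein channel of the endoplasmic reticulum, with CACYBP and STAMBP next. LIN28B had HIST1H2BJ, a histone gene, at distance 1.45, and HMGA2 next at 3.56. From X0 to X4 HIST1H2BJ total RNA was 2.12, 36.4, 56.3, 159 and 365 RPKM. This gene has near-identical copies, so its reads may be hard to place. Why it rose along with LIN28B was not tested.

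NIH3T3 gave a different picture. Lin28b reads were 1, 1, 1, 9 and 42 in total RNA from X0 to X4 and 1, 3, 4, 13 and 42 in polysomes. X3 and X4 were highest, but 42 reads are only 0.354 RPKM, and Lin28b was below the mean of 1 RPKM set for testing. Since the species of the transgene is not given, these reads are no measure of its level, and the order of the NIH3T3 levels rests on the labels. Lin28a had 0 to 5 reads per library. The other 4 genes were tested.

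Hmga2 total RNA in NIH3T3 was 5.11, 5.20, 3.77, 5.48 and 7.96 RPKM from X0 to X4, with X0 and X1 within counting error of each other and no first step. Igf2bp1 was at 2.08, 1.5, 1.41, 1.57 and 2.24 RPKM, Igf2bp2 at 7.86, 5.84, 5.11, 6.69 and 7.11, and Igf2bp3 at 3.83, 3.03, 2.35, 2.66 and 3.87. These 3 paralogs were each lowest at X2 and higher again at X4. From X0 to X1 0 of the 4 genes gained more than 1.5-fold, where 12.2% of 10952 genes did. Along the levels 0 of the 4 passed in total RNA (slopes of −0.01 to 0.13), and 0% of all genes passed (limma; 1162 at an unadjusted p under 0.05, and 0 with edgeR).

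**Figure D5:**
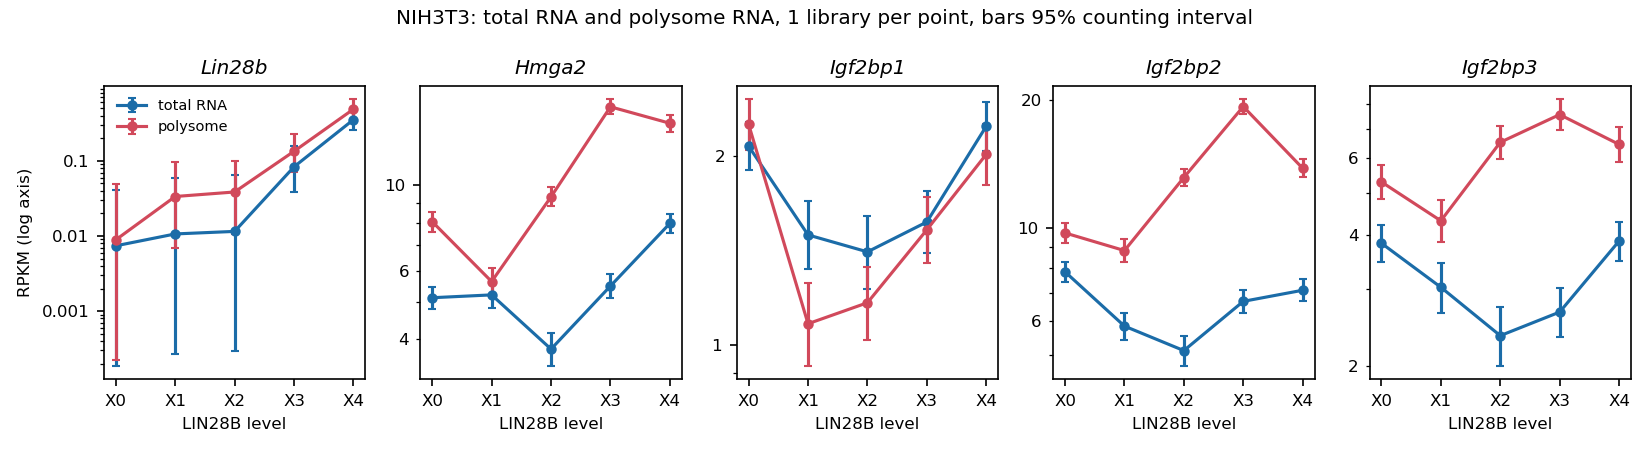
RPKM (log axis, a separate range for each gene) of the 5 genes in NIH3T3 total RNA (blue) and polysome RNA (red) by LIN28B level. Points are single libraries and bars 95% counting intervals, which are wide for Lin28b at 1 to 42 reads. Igf2bp2 and Hmga2 polysome RNA peak at X3 (19.3 and 15.9 RPKM), while their total RNA is lowest at X2.

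In NIH3T3 polysomes Hmga2 was at 8.04, 5.63, 9.32, 15.9 and 14.4 RPKM, Igf2bp2 at 9.71, 8.82, 13.1, 19.3 and 13.8, and Igf2bp3 at 5.30, 4.31, 6.53, 7.56 and 6.46. Each had its highest value at X3 and its lowest at X1. Igf2bp1 was at 2.25, 1.08, 1.17, 1.53 and 2.02 RPKM, with X0 highest. Occupancy of Hmga2 was 0.61, 0.10, 1.20, 1.46 and 0.82. Igf2bp2 had 0.29, 0.56, 1.28, 1.47 and 0.91, and Igf2bp3 had 0.42, 0.45, 1.30, 1.35 and 0.67. These 3 genes were thus high together at X2 and X3 and lower at X4, while the median of all genes stayed between 0.56 and 0.67. The 75th percentile of all genes moved in the same direction, at 0.95, 0.92, 1.12, 1.07 and 0.90 from X0 to X4. A rise at X2 and X3 was therefore not particular to these 3 genes. At both X2 and X3 they exceeded X0 by more than 1.5-fold, where 16.5% of genes did, and Igf2bp1 did not (−0.29 and −0.13). This count was chosen after its values were seen. None of the 4 passed for occupancy, where 0% of 10952 genes passed in limma (537 at an unadjusted p under 0.05) and 0 with edgeR. The slopes were 0.18 ± 0.12 for Hmga2, −0.01 ± 0.09 for Igf2bp1, 0.22 ± 0.10 for Igf2bp2 and 0.14 ± 0.11 for Igf2bp3 (SE).

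The lines were compared directly by the difference of their slopes, over 7249 shared genes. The ranks X0 to X4 name an order in each line and need not stand for equal LIN28B. For occupancy 7.28% of these genes differed, and 1 of the 4 genes tested did. The median difference over all shared genes was 0.12, NIH3T3 minus HEK293A, so differences are to be read against that value and not against 0. IGF2BP2 went from −0.21 per level in HEK293A to 0.22 in NIH3T3, a difference of 0.43 ± 0.11 (SE; limma adjusted p = 0.0467). This call was lost after centring (0.35, limma adjusted p = 0.0787) and without X0 (0.294), X1 (0.0946), X3 (0.135) or X4 (0.0752). IGF2BP3 had 0.14 in both lines, a difference of 0.00 ± 0.13 (limma adjusted p = 0.995). The difference of IGF2BP1 was 0.21 ± 0.09 (0.123) and that of HMGA2 0.16 ± 0.14 (0.419). For total RNA slopes 0% of genes differed (1133 at an unadjusted p under 0.05, not run with edgeR). IGF2BP1 came nearest of the 4, at −0.21 ± 0.09 (limma adjusted p = 0.308).

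The family makeup can be set side by side between the lines. Igf2bp2 held 53.8% to 61.2% of the summed RPKM in NIH3T3 total RNA and 56.3% to 68.0% in polysomes, where Igf2bp1 held 14.4% to 16.9% and 5.37% to 13.0%. In HEK293A total RNA IGF2BP1 and IGF2BP2 were level at X0 (41.8% and 41.6%). In HEK293A polysomes IGF2BP2 led at X0 as in NIH3T3 (47.1%, against 33.0% for IGF2BP1). From X1 to X4 IGF2BP1 led in both fractions of HEK293A. The summed family RNA was 8.87 to 13.8 RPKM in NIH3T3 total RNA. RPKM is relative to the library, so fewer cells that express a gene and less RNA of it per cell cannot be told apart.

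Small RNA counts on features named MIRLET7 could not show let-7 itself. The 8 libraries held 73083 to 172995 counts, of which let-7 features had 5 (AGO2) and 4 (total) in the transfected knockout and 3 and 1 in transfected X3. The 4 libraries without let-7 had 0 each, which allows a share of up to 0.00173% to 0.00238% (3 counts). All of the counts were on MIRLET7A1 or MIRLET7A2. No let-7 feature passed edgeR's filter on low counts, so neither the knockout nor the transfection was tested for it. Features named MIRLET7 had almost no counts even where mature let-7a had been transfected, while hsa-mir-125a held 43.4% to 57.9% of each library. Mature let-7a is encoded by several gene copies, and how reads that match more than one place were counted is not given. Let-7 features were taken as those with symbols starting with MIRLET7, so let-7 reads under another style of name would be missed. Another style is in use, as the name hsa-mir-125a shows, and names of that style were not searched for let-7. Whether the near absence of counts on MIRLET7 features comes from depth, from the counting or from the naming was not tested. The 0s and their limits therefore describe counted reads and not the level of let-7. No difference in let-7 between the knockout and X3 could be read from them.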

How the data were processed

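Polysome, total and small RNA libraries were analysed, 30 in all. The authors deposited RPKM values for 22 libraries and, for 8 small RNA libraries, raw counts per gene. Per the submitters' processing notes cutadapt, STAR, hg19 and mm10 were used; the sources used here do not give counting, strand setting or annotation. Every gene of the HEK293A table reaches 1 RPKM in each total RNA library. Whole reads were recovered from the RPKM steps (tolerance 0.02) for 100% of 11342 HEK293A genes, 99.9% of those in each let-7a library, and 90.7% of 21042 NIH3T3 genes above 0, the other 1952 having reads in 1 library.

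Genes at a mean of at least 1 RPKM were tested on log2(RPKM + 0.5), which understates changes of low genes, with limma 3.58.1 (R 4.3.3) as a slope over ranks 0 to 4, variances following mean expression. P-values were adjusted over all genes (Benjamini-Hochberg, threshold 0.05). A term for line by rank compared the lines. edgeR 4.0.16 quasi-likelihood on recovered reads was the alternative for trends and the main test for small RNA, with DESeq2 1.42.0 beside it. Intervals of RPKM and of ratios are exact at 95% (scipy 1.17.1). Those of the let-7a log2 differences are normal approximations from recovered reads, set around values with 0.5 RPKM added. All cover counting error only. The fits were tested on simulated data. The 5 genes and the lists were chosen with earlier results of these data known. Genes are named by rule: the 5 genes, up to 3 of smallest p that pass per list, the 3 nearest profiles at a mean of 5 RPKM or more (of those of IGF2BP2 the nearest alone is given, and 1 item is not reported here), LIN28A, HMGA1, and let-7 features at 10 mean counts or more (none). The count at X2 and X3 in NIH3T3 was chosen after its values were seen.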

Additional observations from a re-analysis of the deposited data

Results flagged for a closer look

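The occupancy slope of IGF2BP2 differed between the lines by 0.43 per level, negative in HEK293A and positive in NIH3T3; the test of the difference passed its threshold, but not in 4 of the 5 fits that leave out a level.

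Lin28b in NIH3T3 lay below the expression filter and entered no test, yet had 42 total RNA reads at X4 where X0 had 1.

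Let-7 features, taken by the name MIRLET7 alone, entered no test either. They had 13 counts in the 4 transfected small RNA libraries against 0 in the 4 others. Causes of these results were not tested.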

How the results depend on the processing

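With X0 set against X1 to X4, 1 gene was called for HEK293A occupancy and 0 of the 5 genes, 3 genes for HEK293A total RNA and 1 of the 5 (HMGA2), and 2479 genes for NIH3T3 total RNA; Igf2bp1 then had −0.26. With a minimum mean of 5 RPKM, 56 genes were called for HEK293A total RNA and 1026 for the occupancy difference between lines. After centring, 164 were called for HEK293A total RNA, with 1 of the 5, and 179 for the occupancy difference (25 higher and 154 lower in NIH3T3, against 457 and 71), with 0 of the 4. With a pseudocount of 1, 1 gene was called for the total RNA difference. The cause of these shifts was not tested. Directions of values near 0 turned: Igf2bp3 total RNA in NIH3T3 to 0.0088 after quantile normalization, and the IGF2BP3 occupancy difference to 0.0033 with a pseudocount of 0.1.

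Leaving out each level in turn gave 0 to 7189 genes and 0 to 4 of the 5 for HEK293A occupancy, 3 to 537 genes and 1 to 3 of the 5 (LIN28B among them, whose rise defines the levels) for HEK293A total RNA, 0 to 79 genes for NIH3T3 total RNA, 0 to 886 genes and 0 to 1 of the 4 for the occupancy difference, and 0 to 4 genes for the total RNA difference. In these fits the slope of HMGA2 occupancy in HEK293A ran from −0.052 to 0.065, IGF2BP3 total RNA from −0.010 to 0.035 and Igf2bp1 occupancy from −0.046 to 0.082. In NIH3T3 total RNA Hmga2 ran from −0.014 to 0.22, Igf2bp1 from −0.10 to 0.15, Igf2bp2 from −0.083 to 0.11 and Igf2bp3 from −0.17 to 0.11. The difference between lines ran from −0.053 to 0.19 for IGF2BP3 occupancy and, for total RNA, from −0.53 to 0.16 for HMGA2, from −0.41 to 0.027 for IGF2BP1, from −0.17 to 0.043 for IGF2BP2 and from −0.16 to 0.11 for IGF2BP3.

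With 1 library per level and fraction, depth limits the let-7a polysome values of LIN28B and HMGA2 (25 and 43 reads) and Lin28b in NIH3T3. For HMGA2, whose RNA is low with let-7a, the total RNA difference was −2.83 with a pseudocount of 0.1 and −1.98 with 1. No paired analysis was possible because each group holds 1 library and carries no replicate number to block on, beyond occupancy itself, which pairs polysome and total RNA at each level.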
